A study of Danio rerio with 6 samples.

Results

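The genes of fatty acid uptake and oxidation were followed in sorted cardiomyocytes from the atrioventricular canal of adult zebrafish. The set holds 35 gene symbols, chosen by name, of which 34 were rows of the count tables among 25281 rows. slc27a1b was the symbol with no row. After the filter on low counts 33 of the 34 were tested, among 13490 genes, and cd36 was the member that did not pass the filter. The members and the other lists used here were chosen with earlier results of these data known.

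The GFP-positive group, labelled β-cat ON, and the GFP-negative group, labelled β-cat OFF, had 3 RNA-seq libraries each. All 6 came from fish of 4 to 8 months that carried 3 transgenes, in both groups alike. In the first, Tg(myl7:GAL4db-TCFΔC-2A-mCherry), the cardiomyocyte promoter of myl7 drives a GAL4 DNA-binding domain joined to a shortened TCF. The second, Tg(UAS:EGFP), turns on EGFP where β-catenin activates that fusion, and the third, Tg(myl7:NLS-mCherry), puts mCherry in cardiomyocyte nuclei. The sorted-fraction label and the protocol give the GFP-negative cells as mCherry- EGFP+, which conflicts with their titles, so the gate of that group is not settled. Groups follow the titles. Whether the replicates are separate fish, pools or sorts is not in the labels; the p-values therefore measure only how these libraries vary, and that variation may be technical.

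Heart muscle takes most of its energy from fatty acids. They are freed from lipoproteins by lipoprotein lipase, enter the cell through CD36 and transport proteins, are carried by fatty acid-binding proteins and are joined to coenzyme A by acyl-CoA synthetases. The carnitine shuttle brings them into the mitochondrion, where β-oxidation shortens the chain in repeated rounds of dehydrogenation, hydration, dehydrogenation and thiolysis. The electrons of the first dehydrogenation pass through electron transfer flavoprotein to the respiratory chain. The gene roles given below are known chiefly from mammals.

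The libraries of the groups also differed as wholes. Total counts were 14783352 to 15934231 in GFP-positive and 16275969 to 19750914 in GFP-negative libraries. Mitochondrially encoded transcripts took 35.6% to 44.9% of counts in GFP-positive and 11.9% to 15.7% in GFP-negative libraries. On the first principal component GFP-positive replicate 3 lay far from the remaining 5 libraries. Of the 10 cardiomyocyte markers tested, myl7 and mb among them, 5 fell and 5 did not pass, with a median log2 fold change of -1.003; ckmb, the muscle creatine kinase gene, was at 0 in GFP-positive replicate 3 and the others had counts in all 6 libraries. Their summed level was 29423 to 36458 CPM (counts scaled to a common library size, with TMM factors) in GFP-positive and 59352 to 81157 CPM in GFP-negative libraries. In bulk samples, fewer cells of a type and less RNA per cell cannot be told apart. The part of the marker and mitochondrial shares in the results below was not tested.

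In GFP-positive libraries the fatty acid carrier gene fabp3 and the carnitine palmitoyltransferase 1 genes cpt1ab and cpt1b fell. So did acadvl and acadm, all 3 genes of the trifunctional protein, eci2 and decr1. Among the 33 members tested, 10 were called lower and 1 higher, and 22 missed the threshold (edgeR, adjusted p under 0.05 over all genes), and 32 had negative log2 fold changes. Over all tested genes, 2.13% were called lower and 2.08% higher. A member that did not pass is not thereby shown to be alike in both groups. The members' median log2 fold change was -0.86, beside 0.01 over all tested genes. The single gene that rose was fabp11a, another fatty acid-binding protein. Together the 34 members took 0.501% to 0.569% of counts in GFP-positive and 1.28% to 1.42% in GFP-negative libraries. With mitochondrially encoded genes left out of the total, the shares were 0.867% to 0.909% in GFP-positive and 1.49% to 1.67% in GFP-negative libraries.

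In 24 of the 33 tested members every GFP-positive library was below every GFP-negative one, in 1 every GFP-positive library was above, and 8 overlapped. The same held, in the lower direction, for 17.6% of all tested genes and, in the higher direction, for 12.1%. Most members are abundant, so the abundant genes are a closer background. Among the 974 genes that averaged 100 CPM or more over the 6 libraries, 15.7% were called lower, 8.11% were called higher and 36.7% had non-overlapping lower groups. Of the 24 members at that level, 10 were called lower, 1 was called higher and 22 had non-overlapping lower groups. That level is a mean over both groups, so a gene can reach it through the group where it is high. Among the 24, acsl1b, cpt1b, acads, acat1, decr1 and lpl averaged under 100 CPM in GFP-positive libraries, and no member did so in GFP-negative libraries. The comparison at this level is therefore not free of the difference between groups. The median log2 fold change was -0.94 over these 24 members and -0.15 over the 974 genes. Leaving out 1 library changed the count of members called lower. It was 2, 2 and 14 without GFP-positive replicates 1, 2 and 3, beside 66, 40 and 575 of all tested genes. Without GFP-negative replicates 1, 2 and 3 it was 2, 4 and 2, beside 14, 72 and 14 of all tested genes.

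**Figure D1:**
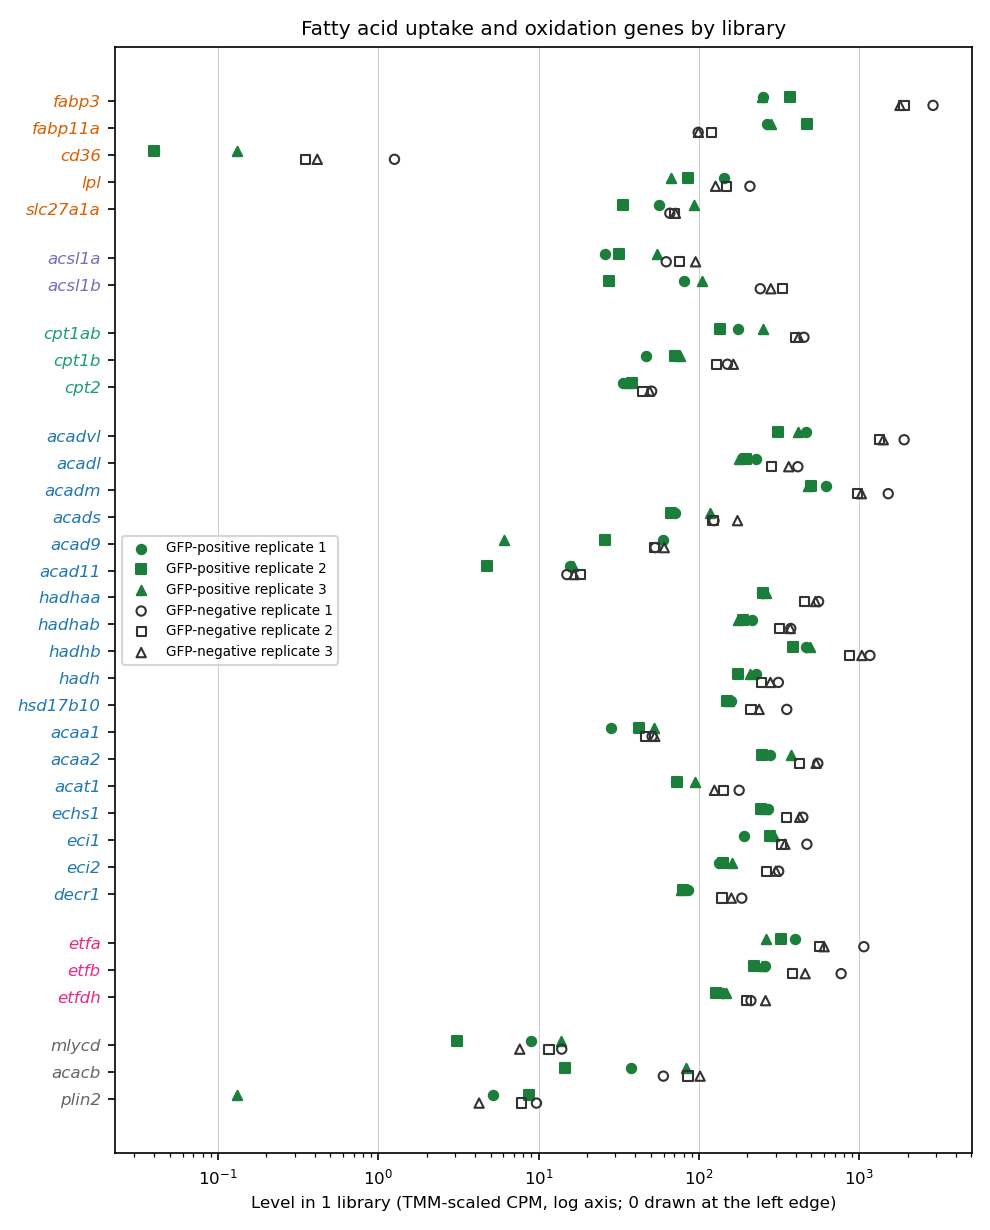
Level of each of the 34 members in each library, in TMM-scaled CPM on a log axis, with filled symbols for the 3 GFP-positive and open symbols for the 3 GFP-negative libraries. Genes run down the page by step, colored by step as in the plot of fold changes. Of the tested members fabp3 shows the widest gap between groups (248 to 367 CPM in GFP-positive, 1793 to 2883 CPM in GFP-negative libraries). The GFP-positive cd36 values of 0 are drawn at the left edge.

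Uptake and binding held 1 call in each direction, and fabp3 had the widest fold change of the tested members. fabp3 (ENSDARG00000023290), the heart-type fatty acid-binding protein that carries fatty acids through the cytoplasm, stood at 252, 367 and 248 CPM in GFP-positive replicates 1, 2 and 3, against 2883, 1898 and 1793 CPM in GFP-negative replicates 1, 2 and 3. The lowest GFP-negative library was more than 4 times the highest GFP-positive one. The gene was 7.58-fold lower in GFP-positive libraries (log2 fold change -2.92 ± 0.26 SE, edgeR adjusted p = 0.00526). It passed in all 6 fits that left out 1 library, with adjusted p from 0.0134 to 0.0347.

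fabp11a (ENSDARG00000017299), a fatty acid-binding protein gene of fishes, went the other way. It stood at 264, 468 and 282 CPM in GFP-positive replicates 1, 2 and 3, against 98.8, 119 and 99.1 CPM in GFP-negative replicates 1, 2 and 3. All 3 GFP-positive libraries were above the GFP-negative ones, with GFP-positive replicate 2 the highest. The log2 fold change was 1.68 ± 0.26 (3.20-fold higher, edgeR adjusted p = 0.0195). The call was lost without GFP-negative replicate 1, 2 or 3 (adjusted p = 0.103, 0.0569 and 0.109). Within a library, fabp3 counts were 0.954, 0.783 and 0.879 times the fabp11a counts in GFP-positive replicates 1, 2 and 3, against 29.2, 15.9 and 18.1 times in GFP-negative replicates 1, 2 and 3.

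Markers of 4 other cell types were also higher in sum in GFP-positive libraries. All 12 endocardium and endothelium markers had positive log2 fold changes, 4 of them called higher. Their summed level was 458 to 760 CPM in GFP-positive and 117 to 214 CPM in GFP-negative libraries. The 8 fibroblast and valve interstitium markers summed to 404 to 616.03 CPM in GFP-positive and 89.6 to 211 CPM in GFP-negative libraries, with 3 called higher. The 5 epicardium markers summed to 197 to 484 CPM in GFP-positive and 66.8 to 78.6 CPM in GFP-negative libraries. The 3 called higher were krt4, aldh1a2 and tcf21, the last also counted on the fibroblast list. Most of the sum was krt4 and aldh1a2, at means of 225 and 119 CPM in GFP-positive and 40.4 and 22.6 CPM in GFP-negative libraries. The other markers of the list, tbx18 and wt1b, overlapped between groups and did not pass (edgeR adjusted p = 0.824 and 0.830). The 6 erythrocyte markers summed to 1606 to 2490 CPM in GFP-positive and 516 to 622 CPM in GFP-negative libraries, and 3 were called higher. The highest GFP-positive sum was in replicate 2 for the endocardium and fibroblast lists, in replicate 1 for epicardium and in replicate 3 for erythrocytes. None of the markers of these 4 lists was at 0 in every library. Their part in the fabp11a result was not tested.

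Markers of macrophages and adipocytes overlapped between groups in their sums. The 8 genes listed as macrophage markers summed to 69.2 to 278 CPM in GFP-positive and 82.1 to 261 CPM in GFP-negative libraries. Of these, 7 were tested and 1, lyz, was called lower. It was scarce, at 1.19 to 1.55 CPM in GFP-negative libraries, with no count in any GFP-positive library. The 6 adipocyte markers summed to 0.310 to 34.3 CPM in GFP-positive and 6.13 to 26.6 CPM in GFP-negative libraries. The adipocyte hormone gene adipoqb and the droplet gene plin1 had at most 0.0776 CPM in GFP-positive and 0.301 CPM in GFP-negative libraries. The leptin gene lepa had counts in GFP-negative replicate 3 alone. The 1 adipocyte marker tested, cebpa, did not pass. It made up most of the adipocyte sum in every library except GFP-positive replicate 1, at up to 33.8 CPM in GFP-positive and 25.4 CPM in GFP-negative libraries.

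The remaining uptake genes did not pass. lpl (ENSDARG00000087697), lipoprotein lipase, stood at 67.0 to 144 CPM in GFP-positive and 127 to 208 CPM in GFP-negative libraries, and the groups overlapped (-0.71 ± 0.33, edgeR adjusted p = 0.305). slc27a1a (ENSDARG00000006240), a fatty acid transport protein, ranged from 33.6 to 93.6 CPM in GFP-positive libraries, around the 65.7 to 71.2 CPM of GFP-negative libraries (-0.17 ± 0.35, edgeR adjusted p = 0.898). cd36 (ENSDARG00000032639), the fatty acid translocase, was almost undetected. It had 0, 0 and 2 counts in GFP-positive replicates 1, 2 and 3, against 19, 7 and 9 counts in GFP-negative replicates 1, 2 and 3. At 2 counts against 35, the scaled level was 13.5 times higher in GFP-negative libraries (exact 95% interval 3.47 to 116). Amplified reads without molecular identifiers are not independent, so this range holds counting error alone, and cd36 was not tested. More tested genes were without a count in GFP-positive libraries, 725 to 1270, against 4 to 66 in GFP-negative libraries. A gene can pass the low-count filter on the counts of either group alone. Whether such zeros are missed or absent transcripts, and their part in the cd36 values, was not tested.

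Transcripts of the activation members, the long-chain acyl-CoA synthetase genes acsl1a and acsl1b, were lower by level without passing the test. acsl1b (ENSDARG00000003854) stood at 80.02, 27.5 and 105 CPM in GFP-positive replicates 1, 2 and 3, against 241, 331 and 280 CPM in GFP-negative replicates 1, 2 and 3. The groups did not overlap, but GFP-positive libraries spread over a 3.80-fold range, and the gene was the nearest to the threshold among those that missed it (-2.01 ± 0.45, edgeR adjusted p = 0.0522). acsl1a (ENSDARG00000030514) stood at 25.7, 31.7 and 54.3 CPM in GFP-positive replicates 1, 2 and 3, against 62.4, 75.9 and 95.1 CPM in GFP-negative replicates 1, 2 and 3 (-1.06 ± 0.33, edgeR adjusted p = 0.124). Without GFP-positive replicate 3 both passed (adjusted p = 0.0454 for acsl1b and 0.0369 for acsl1a), and without any other library neither did. Of the 11 alternatives that kept all 6 libraries, acsl1b passed in 8 and acsl1a in 1.

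In the carnitine shuttle both member genes of the outer membrane enzyme fell. Carnitine palmitoyltransferase 1 joins long-chain acyl groups to carnitine and is the step at which malonyl-CoA controls entry into the mitochondrion. cpt1ab (ENSDARG00000062054) stood at 174, 135 and 251 CPM in GFP-positive replicates 1, 2 and 3, against 451, 400 and 417 CPM in GFP-negative replicates 1, 2 and 3. cpt1b (ENSDARG00000058285) stood at 47.0, 70.7 and 76.6 CPM in GFP-positive replicates 1, 2 and 3, against 150, 128 and 164 CPM in GFP-negative replicates 1, 2 and 3. In both genes all GFP-positive libraries were below all GFP-negative ones. The log2 fold changes were -1.18 ± 0.24 for cpt1ab and -1.19 ± 0.23 for cpt1b (edgeR adjusted p = 0.0434 and 0.0385).

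The cpt1ab call was the nearest to the threshold among the calls. It was lost with RLE factors, with mitochondrially encoded genes removed and with abundance trends taken out (edgeR adjusted p = 0.0566 at most over the fits that used all 6 libraries). Leaving out any library except GFP-positive replicate 3 also ended both calls (adjusted p = 0.0922 to 0.232 for cpt1ab and 0.0732 to 0.223 for cpt1b). cpt2 (ENSDARG00000038618), which returns the acyl group to coenzyme A at the inner membrane, had the narrowest gap of the shuttle genes. It stood at 33.6 to 38.0 CPM in GFP-positive and 44.7 to 50.6 CPM in GFP-negative libraries, without overlap and without passing the test (-0.42 ± 0.20, edgeR adjusted p = 0.322).

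**Figure D2:**
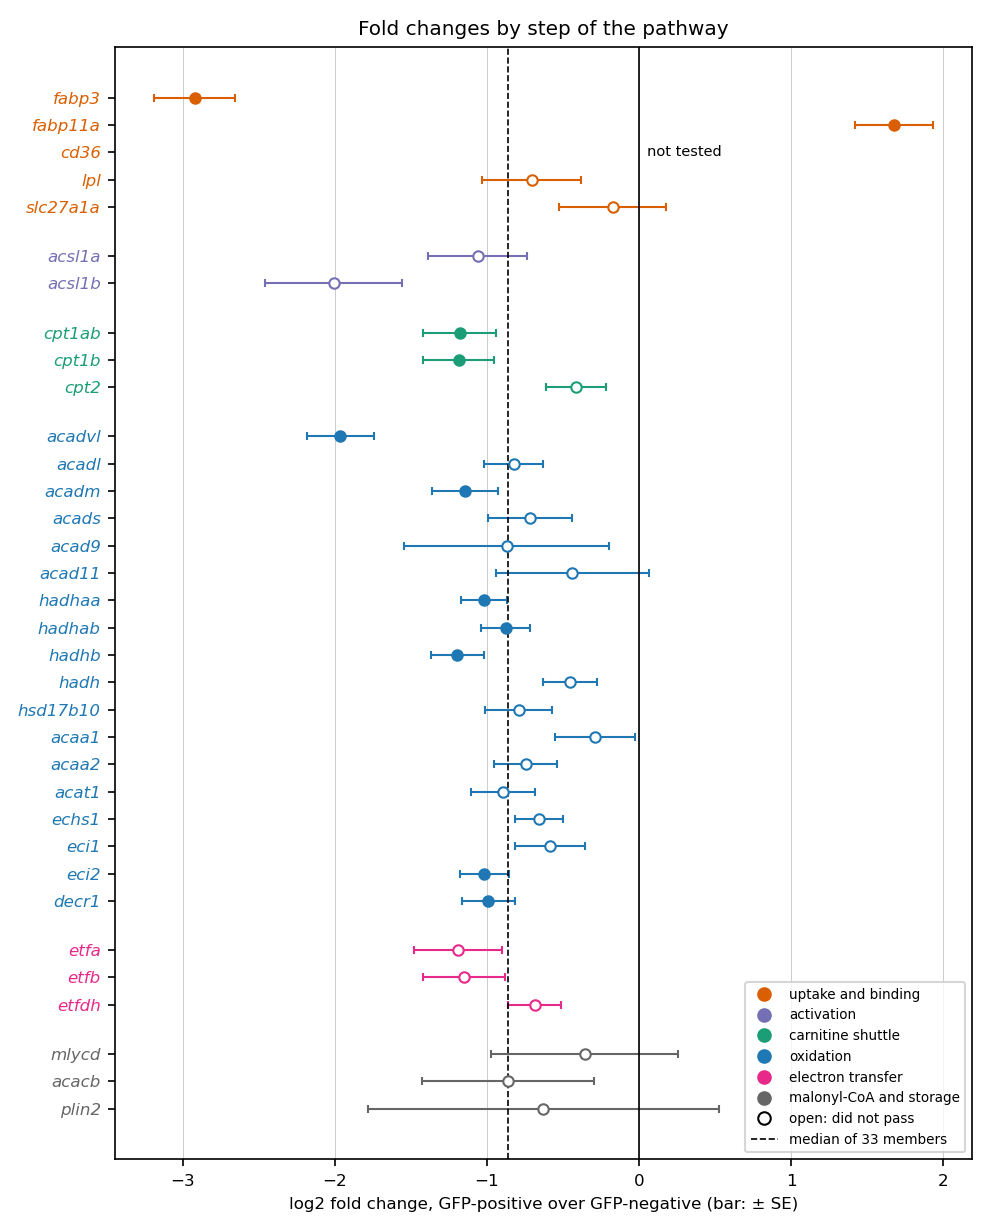
Log2 fold change of each tested member, GFP-positive over GFP-negative, with its SE as the bar; filled points passed the test and open points did not. The dashed line marks the members' median of -0.86, and fabp11a is the single point right of 0.

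All 18 genes of the oxidation step had negative log2 fold changes, from -1.97 to -0.29, and 7 of them fell. acadvl (ENSDARG00000016687), the very long-chain acyl-CoA dehydrogenase that begins the breakdown of long chains at the inner membrane, had the largest drop of the step. It stood at 467, 312 and 412 CPM in GFP-positive replicates 1, 2 and 3, against 1903, 1338 and 1410 CPM in GFP-negative replicates 1, 2 and 3. No GFP-positive library came within a factor of 2 of a GFP-negative one. The gene was 3.91-fold lower (-1.97 ± 0.22, edgeR adjusted p = 0.00869) and passed in all 6 fits that left out 1 library (adjusted p = 0.0245 to 0.0437). It overlaps other annotated genes in RefSeq, so some of its counts are uncertain.

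The other acyl-CoA dehydrogenases, which catalyse the same reaction on shorter chains, gave 1 call. acadm (ENSDARG00000038900), the medium-chain enzyme, stood at 615.4, 499 and 477 CPM in GFP-positive replicates 1, 2 and 3, against 1514, 972 and 1029 CPM in GFP-negative replicates 1, 2 and 3. The groups did not overlap and the gene fell by 1.14 ± 0.22 on the log2 scale (edgeR adjusted p = 0.0348). The acadm call was lost whichever of the 6 libraries was left out (adjusted p = 0.0569 to 0.109). acadl, the long-chain enzyme, stood at 178 to 225 CPM in GFP-positive and 284 to 413 CPM in GFP-negative libraries and did not pass (-0.83 ± 0.19, edgeR adjusted p = 0.0574). acads, the short-chain enzyme, stood at 66.4 to 117 CPM in GFP-positive and 122 to 174 CPM in GFP-negative libraries and did not pass either (-0.72 ± 0.28, edgeR adjusted p = 0.209), but did without GFP-positive replicate 3 (adjusted p = 0.0491).

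Members of the same family with roles outside the main cycle overlapped between groups. acad9, known also for the assembly of respiratory complex I, stood at 59.2, 25.9 and 6.05 CPM in GFP-positive replicates 1, 2 and 3, against 53.2, 52.7 and 60.7 CPM in GFP-negative replicates 1, 2 and 3. The GFP-positive libraries differed 9.79-fold among themselves, and the gene did not pass (edgeR adjusted p = 0.621). acad11 stood at 4.77 to 16.4 CPM in GFP-positive and 14.97 to 18.3 CPM in GFP-negative libraries (edgeR adjusted p = 0.780).

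The mitochondrial trifunctional protein, whose alpha subunit hydrates and dehydrogenates long-chain intermediates and whose beta subunit cleaves them, fell in all 3 of its genes. hadhaa (ENSDARG00000057128), an alpha subunit gene, stood at 248, 252 and 263 CPM in GFP-positive replicates 1, 2 and 3, against 557, 454 and 533 CPM in GFP-negative replicates 1, 2 and 3. hadhab (ENSDARG00000060594), the other alpha subunit gene, stood at 215, 188 and 175 CPM in GFP-positive replicates 1, 2 and 3, against 373, 317 and 370 CPM in GFP-negative replicates 1, 2 and 3. hadhb (ENSDARG00000102055), the beta subunit gene, stood at 462, 388 and 491 CPM in GFP-positive replicates 1, 2 and 3, against 1164, 872 and 1037 CPM in GFP-negative replicates 1, 2 and 3. In each of these genes the groups were separate and the GFP-positive libraries lay close together, with the highest at most 1.27 times the lowest.

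The log2 fold changes of hadhaa, hadhab and hadhb were -1.02 ± 0.15, -0.88 ± 0.16 and -1.20 ± 0.17 (edgeR adjusted p = 0.0176, 0.0318 and 0.0171). Those of hadhaa and hadhb were lost without GFP-positive replicate 1 or 2 or GFP-negative replicate 1 or 3 (adjusted p = 0.0675 to 0.115 and 0.0685 to 0.113). The hadhab call was lost without any library but GFP-positive replicate 3 (0.0651 to 0.162), and with abundance trends taken out (0.0572). hadhb and hadhaa are neighbouring genes in the RefSeq annotation of GRCz12tu.

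Both further genes of the oxidation step that fell belong to the auxiliary enzymes that prepare unsaturated fatty acids for the cycle. eci2 (ENSDARG00000102412), an enoyl-CoA isomerase, stood at 132, 142 and 160 CPM in GFP-positive replicates 1, 2 and 3, against 314, 263 and 302 CPM in GFP-negative replicates 1, 2 and 3. decr1 (ENSDARG00000003869), a dienoyl-CoA reductase, stood at 85.7, 79.8 and 77.6 CPM in GFP-positive replicates 1, 2 and 3, against 185, 139 and 159 CPM in GFP-negative replicates 1, 2 and 3. Both had separate groups. They fell by 1.02 ± 0.16 and 0.99 ± 0.18 on the log2 scale (edgeR adjusted p = 0.0211 and 0.0287). Both calls were lost without any library but GFP-positive replicate 3 (adjusted p = 0.0540 to 0.158 for eci2 and 0.0604 to 0.169 for decr1). eci2 also overlaps other annotated genes in RefSeq, so some of its counts are uncertain. eci1, the other isomerase gene, stood at 190.4 to 293 CPM in GFP-positive and 326 to 471 CPM in GFP-negative libraries and did not pass (-0.59 ± 0.23, edgeR adjusted p = 0.219).

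The remaining genes of the cycle did not pass the test. echs1, the enoyl-CoA hydratase, stood at 245 to 269.8 CPM in GFP-positive and 349.5 to 444 CPM in GFP-negative libraries (edgeR adjusted p = 0.0609). acat1, an acetyl-CoA acetyltransferase of ketone body and isoleucine metabolism, stood at 72.1 to 94.1 CPM in GFP-positive and 125 to 178 CPM in GFP-negative libraries (edgeR adjusted p = 0.0573, and 0.0458 without GFP-positive replicate 3). In both genes the groups were separate, as they were in the thiolase gene acaa2 and the hydroxyacyl-CoA dehydrogenase genes hsd17b10 and hadh. acaa2 stood at 245 to 377 CPM in GFP-positive and 423 to 550.3 CPM in GFP-negative libraries. hsd17b10 stood at 149.7 to 159 CPM in GFP-positive and 210.5 to 352 CPM in GFP-negative libraries, and hadh at 174 to 228 CPM in GFP-positive and 245 to 312 CPM in GFP-negative libraries. The log2 fold changes of these 3 were -0.75 ± 0.21, -0.79 ± 0.22 and -0.45 ± 0.18 (edgeR adjusted p = 0.0946, 0.0900 and 0.213, with 0.0463 for acaa2 without GFP-positive replicate 3). acaa1, the thiolase of peroxisomes, had the smallest fold change of the step, -0.29 ± 0.26, and stood at 28.4 to 52.3 CPM in GFP-positive and 46.4 to 53.0 CPM in GFP-negative libraries (edgeR adjusted p = 0.700).

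Electron transfer flavoprotein, the acceptor of electrons from the acyl-CoA dehydrogenases, is made of the products of etfa and etfb and is reoxidised by that of etfdh. All 3 genes had separate groups with lower GFP-positive levels, and none passed. etfa (ENSDARG00000101631) stood at 395, 322 and 261 CPM in GFP-positive replicates 1, 2 and 3, against 1067, 562 and 603 CPM in GFP-negative replicates 1, 2 and 3. etfb (ENSDARG00000009250) stood at 258, 219 and 248 CPM in GFP-positive replicates 1, 2 and 3, against 770, 383 and 459 CPM in GFP-negative replicates 1, 2 and 3. In both it was GFP-negative replicate 1 that stood well above the rest of its group. etfdh stood at 128 to 147 CPM in GFP-positive and 197 to 259.8 CPM in GFP-negative libraries. The log2 fold changes of etfa, etfb and etfdh were -1.19 ± 0.29, -1.15 ± 0.27 and -0.69 ± 0.17 (edgeR adjusted p = 0.0643, 0.0578 and 0.0685). With DESeq2 all 3 passed, as part of 19 members lower. Over all tested genes DESeq2 called 729 lower. Of the 11 alternatives that kept all 6 libraries, etfa passed in 5, etfb in 7 and etfdh in 4. In the 6 fits that left out 1 library none of these genes passed. etfa overlaps other genes in RefSeq, tpm1 of muscle among them, so its counts are uncertain.

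The 3 genes of malonyl-CoA and storage, each averaging under 100 CPM, overlapped between groups. Of the 24 members averaging 100 CPM or more, 1 overlapped, against 8 of all 33 tested members. acacb, the acetyl-CoA carboxylase that makes malonyl-CoA at mitochondria, stood at 37.8, 14.5 and 83.1 CPM in GFP-positive replicates 1, 2 and 3, against 59.9, 85.2 and 101 CPM in GFP-negative replicates 1, 2 and 3. mlycd, which breaks malonyl-CoA down, ranged from 3.09 to 13.8 CPM in GFP-positive and from 7.61 to 13.9 CPM in GFP-negative libraries. plin2, which coats lipid droplets, had 67, 135 and 2 counts in GFP-positive replicates 1, 2 and 3, against 146, 156 and 92 counts in GFP-negative replicates 1, 2 and 3. In each of these 3 genes at least 1 GFP-positive library lay within or above the GFP-negative range. None passed, with log2 fold changes of -0.86 ± 0.57, -0.36 ± 0.61 and -0.63 ± 1.15 (edgeR adjusted p = 0.532, 0.876 and 0.885).

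Summed by step, GFP-positive libraries were below GFP-negative ones at each step of the path itself. The 5 uptake and binding genes summed to 787 ± 145 CPM in GFP-positive and 2528 ± 635 CPM in GFP-negative libraries (SD, n = 3 each). Of these sums fabp3 alone made up 289 CPM in GFP-positive and 2191 CPM in GFP-negative libraries. The other uptake and binding genes together were not lower in GFP-positive libraries, fabp11a being higher there. The 2 activation genes summed to 108 ± 49.9 CPM in GFP-positive and 362 ± 53.2 CPM in GFP-negative libraries. The 3 shuttle genes summed to 288 ± 66.9 CPM in GFP-positive and 618 ± 40.9 CPM in GFP-negative libraries. These sums did not overlap between groups. Nor did those of the 18 oxidation genes, at 3662 ± 264 CPM in GFP-positive and 7666 ± 1214 CPM in GFP-negative libraries, or of the 3 electron transfer genes, at 706 ± 75.5 CPM in GFP-positive and 1504 ± 479 CPM in GFP-negative libraries. The 3 genes of malonyl-CoA and storage overlapped, at 26.3 to 97.0 CPM in GFP-positive and 83.5 to 113 CPM in GFP-negative libraries. A sum is led by its most abundant genes, so it was compared between groups and not between steps.

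**Figure D3:**
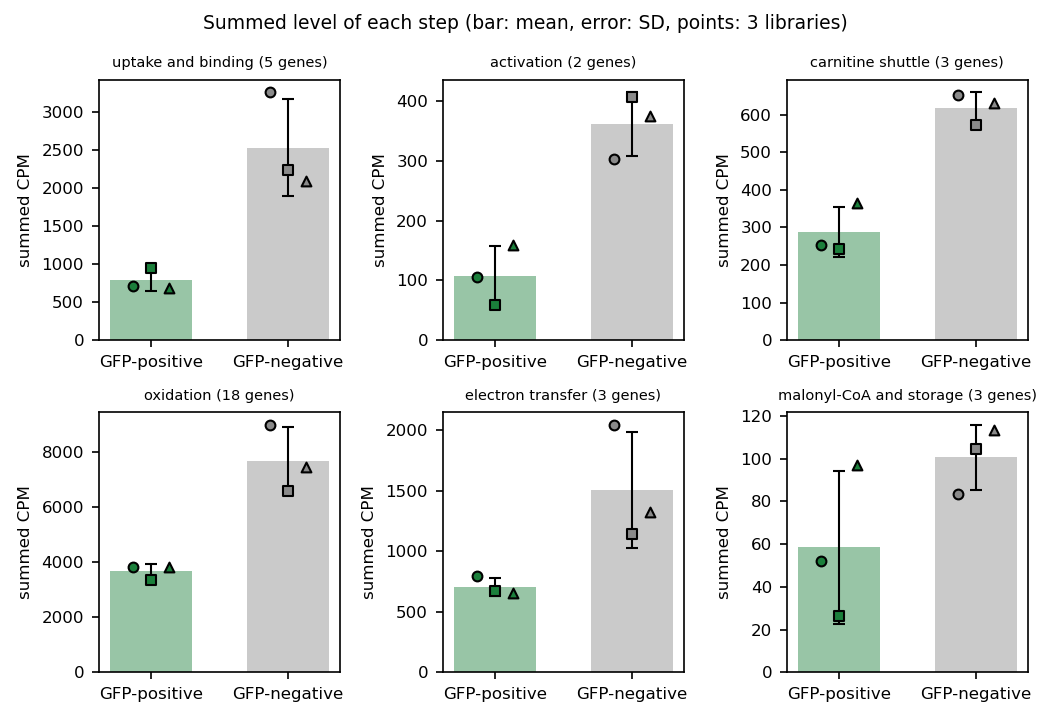
Summed level of the genes of each step, in TMM-scaled CPM, in GFP-positive and GFP-negative libraries; bars are means, error bars SD over 3 libraries, and symbols mark replicates 1 (circle), 2 (square) and 3 (triangle). The oxidation genes sum to 3356 to 3823 CPM in GFP-positive and 6574 to 8973 CPM in GFP-negative libraries.

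Spread between replicates differed by gene. The highest library was more than 2 times the lowest in 9 of 33 tested members within the GFP-positive group and in 2 within the GFP-negative group. The median of this ratio over members was 1.51 in GFP-positive and 1.34 in GFP-negative libraries, beside 3.75 in GFP-positive and 1.47 in GFP-negative libraries over all tested genes. Among GFP-positive libraries the tightest member was hadhaa, with a ratio of 1.06, and the widest was plin2, with 66.8. For the 24 abundant members, those averaging 100 CPM or more, the median ratios were 1.31 in GFP-positive and 1.36 in GFP-negative libraries. Over the 974 genes at that level they were 1.40 in GFP-positive and 1.32 in GFP-negative libraries.

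Because cardiomyocyte transcripts were lower as well, each member was also expressed per 1000 counts of myl7, the cardiomyocyte myosin light chain gene, in the same library. This ratio and its denominators were chosen after the data were seen, and it does not depend on the scaling of libraries. myl7 itself was called lower in GFP-positive libraries (-0.98 ± 0.18, edgeR adjusted p = 0.0321). A member that fell by less than myl7 can thus have a higher ratio there. The myl7 promoter also drives the GAL4 and mCherry transgenes, and the part of this in the ratios was not tested. On the myl7 scale 25 of 33 members overlapped between groups, 4 were lower and 4 were higher in GFP-positive libraries. Over all tested genes the groups were separate and lower in 4.41%, and separate and higher in 35.4%. All members summed stood at 365, 420 and 375 per 1000 myl7 counts in GFP-positive replicates 1, 2 and 3, against 441, 447 and 444 in GFP-negative replicates 1, 2 and 3. The mean of this sum was 387 in GFP-positive and 444 in GFP-negative libraries, and that of fabp3 alone 20.4 and 75.4. The gap of fabp3 alone was thus nearly as wide as that of the sum. The other members together overlapped between groups, with changes in both directions. The mean of acadvl was 27.0 in GFP-positive and 53.8 in GFP-negative libraries, and that of fabp11a 24.1 and 3.79. The trifunctional alpha subunit gene hadhaa stood at 15.7 to 19.9 per 1000 myl7 counts in GFP-positive and 16.04 to 19.8 in GFP-negative libraries.

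The members with a lower ratio to myl7 in every GFP-positive library were fabp3, acsl1b, acadvl and hadhb. fabp3 stood at 16.02, 29.0 and 16.1 per 1000 myl7 counts in GFP-positive replicates 1, 2 and 3, against 83.1, 76.8 and 66.5 in GFP-negative replicates 1, 2 and 3. acadvl stood at 29.7, 24.7 and 26.7 per 1000 myl7 counts in GFP-positive replicates 1, 2 and 3, against 54.8, 54.1 and 52.3 in GFP-negative replicates 1, 2 and 3. The groups lay well apart in both. hadhb was separate by a small margin, at 29.4 to 31.9 per 1000 myl7 counts in GFP-positive and 33.6 to 38.4 in GFP-negative libraries. Those with a higher ratio in every GFP-positive library were fabp11a, cpt2, hadh and echs1. fabp11a stood at 16.8 to 37.1 per 1000 myl7 counts in GFP-positive and 2.85 to 4.83 in GFP-negative libraries.

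The count of separated members depended on the marker in the denominator. Over the 8 other cardiomyocyte markers with counts in every library, 0 to 18 members were lower and 1 to 28 higher. With the same denominators 1.82% to 10.2% of all tested genes were separate and lower, and 14.5% to 60.8% separate and higher. The extremes were tnni1b, a troponin I gene that did not pass the test (-0.30 ± 0.20, edgeR adjusted p = 0.532), with 18 members and 10.2% of all genes lower, and mb, myoglobin, which fell by 2.58 ± 0.18 on the log2 scale (edgeR adjusted p = 0.00300), with 28 members and 60.8% of all genes higher. fabp3 and acadvl were lower with 8 of the 9 denominators, all but mb. acsl1b was lower with 7, hadhb with 4, and fabp11a was higher with all 9.

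**Figure D4:**
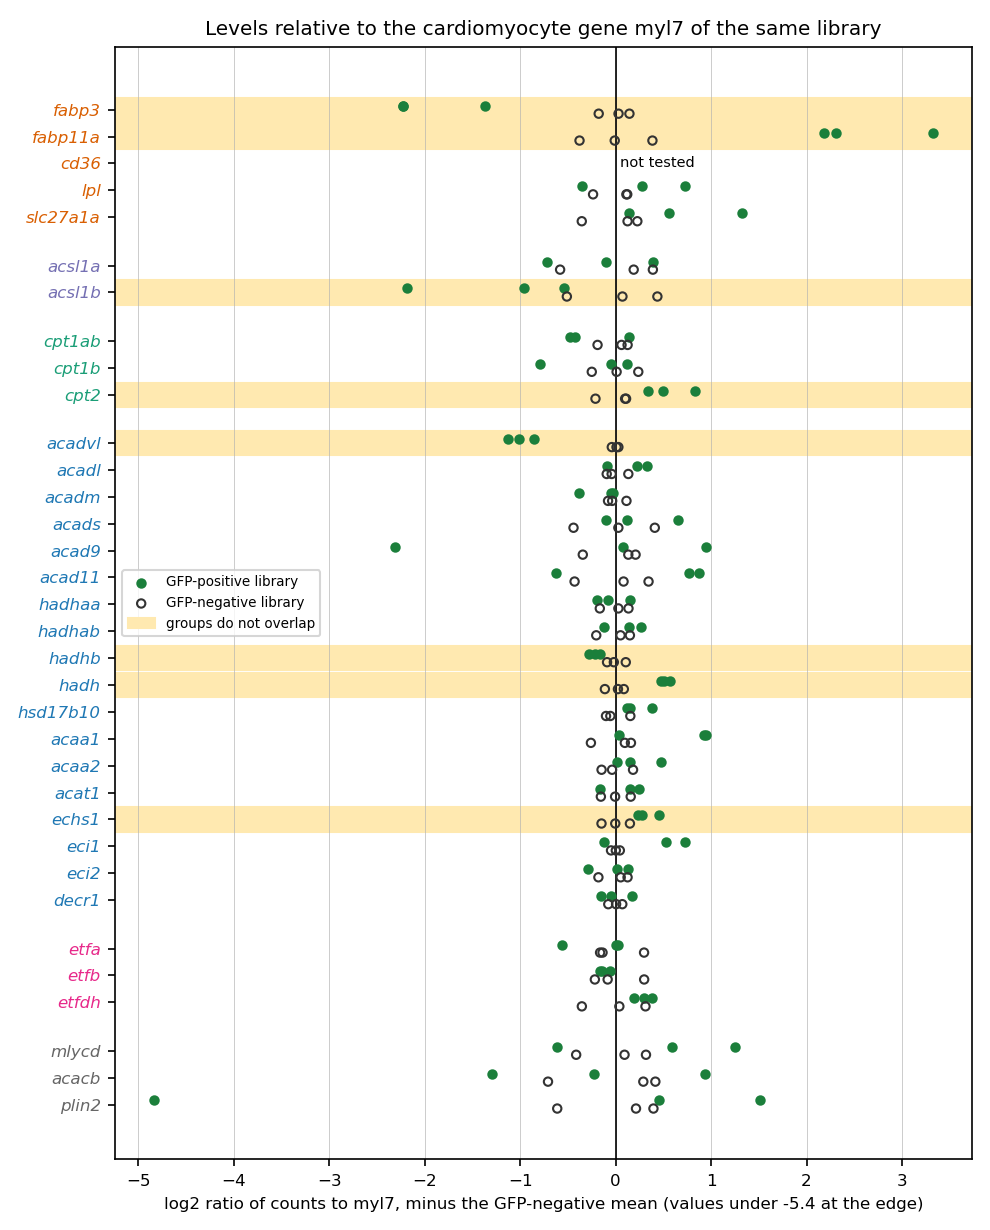
Log2 ratio of each member's counts to myl7 counts of the same library, minus the mean of the GFP-negative libraries; filled points are GFP-positive and open points GFP-negative libraries, and shaded rows mark genes whose groups do not overlap. Of 33 members 25 overlap; fabp3, acsl1b, acadvl and hadhb are lower, and fabp11a, cpt2, hadh and echs1 higher, in GFP-positive libraries.

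Paralogs were compared by the log2 ratio of their counts within a library, for the 3 pairs with rows in the tables. The hadhaa to hadhab ratio was 0.40 ± 0.19 in GFP-positive and 0.54 ± 0.03 in GFP-negative libraries (log2, SD, n = 3 each), a difference of -0.13. The cpt1ab to cpt1b ratio was 1.51 ± 0.51 in GFP-positive and 1.53 ± 0.15 in GFP-negative libraries, a difference of -0.01. In neither pair were the groups separate (two-sided exact permutation p = 0.4 and 1, adjusted 0.6 and 1 over 3 pairs). The acsl1a to acsl1b ratio was -0.79 ± 0.93 in GFP-positive and -1.88 ± 0.29 in GFP-negative libraries, a difference of 1.09 (exact permutation p = 0.2, adjusted 0.6). The smallest p that 3 against 3 libraries allow is 0.1, so this design could not have passed 0.05, and no pair was shown to differ or to be alike.

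The remaining genes of fatty acid handling, a list of 60 symbols with 52 rows and 34 genes tested, gave 2 calls. Of the 34, 2 fell, 0 rose and 32 did not pass (edgeR), with a median log2 fold change of -0.46. An unadjusted p under 0.05 was met by 11 of the 34 (32.4%) in either direction, beside 18.9% of all tested genes. DESeq2 called 6 of them lower and 3 higher, beside 729 lower and 938 higher over all genes. dbi (ENSDARG00000026369), the acyl-CoA-binding protein, averaged 261 ± 16.6 CPM in GFP-positive and 510 ± 55.3 CPM in GFP-negative libraries (SD, n = 3 each; -0.96 ± 0.15, edgeR adjusted p = 0.0222). ehhadh (ENSDARG00000070029), the bifunctional enzyme of peroxisomal oxidation, averaged 12.2 ± 1.96 CPM in GFP-positive and 32.1 ± 1.54 CPM in GFP-negative libraries (-1.39 ± 0.27, edgeR adjusted p = 0.0376). Both calls were lost without any library but GFP-positive replicate 3 (adjusted p = 0.0522 to 0.135 for dbi and 0.0646 to 0.225 for ehhadh). With the replicate number as a block, ehhadh did not pass (0.0750).

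By step, none of the 5 tested genes of carnitine transport and transfer in that list passed. slc25a20, the carrier that moves acylcarnitines across the inner membrane, averaged 77.0 ± 12.9 CPM in GFP-positive and 86.0 ± 10.6 CPM in GFP-negative libraries (-0.16 ± 0.20, edgeR adjusted p = 0.816). crata, a carnitine acetyltransferase, was nearer to the threshold (-0.78 ± 0.18, edgeR adjusted p = 0.0533). All 11 tested oxidation genes of that list, most of them peroxisomal, had negative log2 fold changes, with ehhadh the 1 that passed. They ranged from -2.91 to -0.0017, and 7 of the 11 overlapped between groups. Over all 13490 tested genes 6678 had negative log2 fold changes. None of the 6 tested genes of lipid droplets and lipolysis and none of the 4 of ketone bodies passed. Of the 4 tested activation genes of that list, 3 had positive log2 fold changes, unlike acsl1a and acsl1b. All 4 overlapped between groups and none passed. The activation genes of that list summed to 31.2 to 95.3 CPM in GFP-positive and 28.5 to 36.9 CPM in GFP-negative libraries. slc25a20 and crata were named after their values were seen.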

How the data were processed

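RNA-seq libraries of sorted canal cardiomyocytes, 3 GFP-positive and 3 GFP-negative, were used. Per the labels' protocols, the dissected canal was digested with collagenase (3 mg/ml, 30 min), cells were sorted, cDNA was amplified with SMART-Seq v4 and libraries were made with an NEBNext Ultra II Directional kit. The authors deposited raw total counts per gene, per the file headers. For the aligner, counter, strand rule, build and annotation, no entry is given in the sources used here. Coordinates are therefore left out, and genes that overlap or resemble others are uncertain.

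The test was that of edgeR 4.0.16 (R 4.3.3) on the deposited counts: filterByExpr, TMM, group as the only term, robust quasi-likelihood F test, Benjamini-Hochberg over 13490 genes, threshold 0.05. The SE is the log2 fold change over the square root of F. Levels are TMM-scaled CPM; comparing them between genes would need gene lengths, so it was not done. The step was tested on simulated data. Members and lists were chosen with earlier results of these data known. Every member is accounted for: called members are given by library, the others by library or by their range over libraries, and of the further pathway genes the called ones are named. No protein or promoter sequences were used here.

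Alternatives were RLE, upper-quartile and no composition factors, DESeq2 1.42.0, limma-voom (limma 3.58.1), other filters, removal of mitochondrially encoded genes, a replicate block, leaving out each library and, added after the data were seen, removal of abundance trends and no robust fitting. Paralog ratios used a pseudocount of 1 and exact permutation.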

Additional observations from a re-analysis of the deposited data

How the results depend on the processing

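Members called lower numbered 10 in the reported fit, 16 with upper-quartile factors, 18 with no composition factor, 19 with DESeq2, 16 with limma-voom and 16 with a filter at a mean of 5 CPM, 15 with no filter, 11 without robust fitting, 9 with RLE factors, 9 with mitochondrially encoded genes removed and 8 with abundance trends removed. Leaving out 1 library gave 2 to 14 lower and 0 to 1 higher members. The other pathway genes called lower numbered 2 in the reported fit, 6 with DESeq2, 4 with limma-voom and 0 to 6 without 1 library. Those called higher numbered 0, 3 with DESeq2, 1 with limma-voom, 1 without robust fitting and 0 to 2 without 1 library. The cause of these shifts was not tested, except that fits without a library have fewer samples. All 11 called members kept their direction in the 17 alternatives, and fabp3 and acadvl kept their calls in all of them; 11 of the 22 members not called passed in at least 1. Without GFP-positive replicate 2 the log2 fold changes of slc27a1a, acad11 and mlycd turned to 0.19, 0.0043 and 0.11, none past the test; their lowest values, without GFP-positive replicate 3, were -0.63, -0.72 and -0.89.

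Same-numbered libraries correlated in their deviations from the group means by 0.13, 0.19 and 0.09, each library best with its own number, a hint from the data that does not establish pairs. With the replicate number as a block 15 members and 1 other pathway gene were called lower, beside 290 lower and 282 higher over all tested genes. For the paralog ratios the block cannot move the difference (1.09 for acsl1a to acsl1b), so it says nothing of their stability.

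Over all tested genes the median log2 fold change moved from 0.01 to -0.11 with upper-quartile factors, -0.16 with none, -0.36 with limma-voom, -0.29 with the block and 0.18 with abundance trends removed; the members' median lay between -1.04 and -0.74 throughout. All genes called numbered 280 higher and 288 lower in the reported fit, 258 and 450 with upper-quartile factors, 196 and 507 with none, 938 and 729 with DESeq2, 311 and 549 with limma-voom, 316 and 196 with trends removed, and 30 to 443 higher and 14 to 575 lower without 1 library. With RLE factors 284 genes were called higher and 200 lower, and with mitochondrially encoded genes removed 256 and 237. The counts were 281 higher and 331 lower with no filter, 380 and 346 with a filter at a mean of 5 CPM, and 300 and 342 without robust fitting. Depth limits cd36, with 37 counts in all.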

Other observations

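Some scarce genes of fatty acid handling had wide gaps between groups without passing the test; they were named after their values were seen. slc27a4, a fatty acid transport protein gene, averaged 0.125 ± 0.164 CPM in GFP-positive and 4.45 ± 0.772 CPM in GFP-negative libraries (SD, n = 3 each; edgeR adjusted p = 0.0871). cpt1aa, a further carnitine palmitoyltransferase 1 gene, averaged 1.17 ± 1.60 CPM in GFP-positive and 12.2 ± 2.40 CPM in GFP-negative libraries (edgeR adjusted p = 0.224). fabp7a, known from brain, went the other way, at 5.99 ± 1.71 CPM in GFP-positive and 0.448 ± 0.111 CPM in GFP-negative libraries (edgeR adjusted p = 0.0578). In each of the 3 the groups did not overlap, but they were picked for wide gaps, so this is no further support. Over all tested genes 17.6% were separate and lower, and 12.1% separate and higher, in GFP-positive libraries. Among tested genes 725 to 1270 had no count in GFP-positive libraries, against 4 to 66 in GFP-negative libraries; the part of this in the slc27a4 and cpt1aa values was not tested.

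In the RefSeq annotation of GRCz12tu, which may not be the annotation used for counting, 32 of the 34 members were matched and 11 overlapped another gene. The members not matched were fabp11a and lpl, so overlaps of these were not checked. Among the called members with an overlap were acadvl, with zgc:194312 and a long noncoding RNA gene, and eci2, with tubb6 and cidea. The annotated span of etfa holds tpm1, a tropomyosin gene of muscle. How reads in such overlaps were counted is not given in the sources used here.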
